A study of Saccharomyces cerevisiae with 6 samples.

Results

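The FLO genes of budding yeast (Saccharomyces cerevisiae) were examined in cells in which lysines 4, 36 and 79 of histone H3 were changed to arginine. The family was taken as 6 genes: the flocculins FLO1, FLO5, FLO9, FLO10 and FLO11, and FLO8, which encodes a transcription factor that activates them. All probe sets annotated to these genes and to no other gene were used, which gave 17 of the 9275 probe sets on the array that were not controls, for 6 of the 5923 genes annotated on it. The series held 6 Affymetrix arrays of total RNA, 3 from the mutant strain named H3 K4,36,79R and 3 from its wild-type strain. Cultures of both strains went from selective galactose to selective glucose medium 6 h before harvest, and were collected at OD600 values between 0.5 and 0.7. Per the series design, glucose shuts off a wild-type H3 gene, so that the mutant form is the sole H3 left, and the samples came from replicate cultures. The strain background, the mating type and the plasmids are not given in the labels, so any such difference between the strains cannot be told apart from the replaced lysines.

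Flocculins are large, heavily glycosylated proteins anchored in the yeast cell wall. Flo1, Flo5, Flo9 and Flo10 act as lectins that bind mannose chains on neighbouring cells and so make cells clump, and Flo11 supports invasive growth, filament formation and sticking to plastic or agar. In laboratory strains the flocculin genes are mostly silent, held down by the Tup1-Cyc8 co-repressor, by histone deacetylases and, close to the chromosome ends, by telomeric silencing. The lysines replaced here are the ones methylated by Set1, Set2 and Dot1. FLO8 is needed for expression of FLO1 and FLO11, and the common laboratory strain S288C carries a nonsense mutation in it.

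The 6 genes lie in different settings. In the gene table of assembly R64, which was used for names and gene order only, 4 protein-coding genes separate FLO1 (YAR050W) from the nearer end of chromosome I, and 8 separate FLO9 (YAL063C) from the other end of that chromosome. FLO10 (YKR102W) has 4 genes between it and the nearer end of chromosome XI. FLO5 (YHR211W), on chromosome VIII, has 13, and FLO11 (YIR019C), on chromosome IX, has 23. FLO8 (YER109C) is an internal gene of chromosome V with 89 protein-coding genes to the nearer end, and the table lists it as a pseudogene in the reference strain.

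The array did not resolve the family evenly. FLO10 had 7 probe sets of its own, FLO5 had 3, FLO8 had 2, FLO1 and FLO11 had 1 each, and FLO9 had 0. FLO9 was measured only through probe sets that also list other flocculins: 1 lists FLO5 and FLO9, and 1 lists FLO1, FLO5 and FLO9. A further probe set lists FLO1 and FLO5. The labels do not say which stretch of a gene each probe set covers, and a shared probe set gives a signal that cannot be divided among its genes. Signals are therefore compared between strains within a probe set and never between probe sets.

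Signals were brought to the same 2% trimmed mean of 500 on every array and are linear intensities in those units. A probe set entered the test when its signal averaged 50 or more across the 6 arrays, which left 6808, of which 10 were FLO probe sets and 7 FLO probe sets were too dim. Differences are mutant minus wild type on log2(scaled signal + 16), and a call is a limma p, adjusted by Benjamini-Hochberg over all probe sets tested, under 0.05. The H3 genes HHT1 and HHT2 share a probe set that read 955.7 ± 90.5 (SD, n = 3) in the mutant. In the wild type it read 2868 ± 87.2 (SD, n = 3). A brighter probe set of the same pair read 12817 ± 1479 (SD, n = 3) in the mutant. In the wild type that probe set read 13765 ± 1118 (SD, n = 3). A dim one, under the signal minimum, averaged 18.6 in the mutant and 8.88 in the wild type. The pair's probe sets thus disagree, and they cannot check the labels because the plasmids are not given. Correlations between arrays on the log2 scale were 0.964 to 0.983 within the mutant, 0.985 to 0.989 within the wild type and 0.961 to 0.981 between strains.

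Of the 10 tested FLO probe sets, 1 was called, a FLO10 probe set that was higher in the mutant. Over all probe sets tested 2.25% were called, 0.896% higher and 1.35% lower. The members were chosen with earlier results of these data known, which limits what such a comparison can show. The differences of the 10 were positive for 5 and negative for 5, with a median of 0.20 against 0.02 over all probe sets tested. The values of the 2 strains did not overlap for 5 of the 10, with 4 higher and 1 lower in the mutant, against 25.8% of all probe sets tested, 14.3% higher and 11.5% lower. The 1 that was lower, FLO5 probe set 11396_g_at, passed the signal minimum only through its wild-type arrays, so its place among those 5 was in part fixed by the filter.

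**Figure D1:**
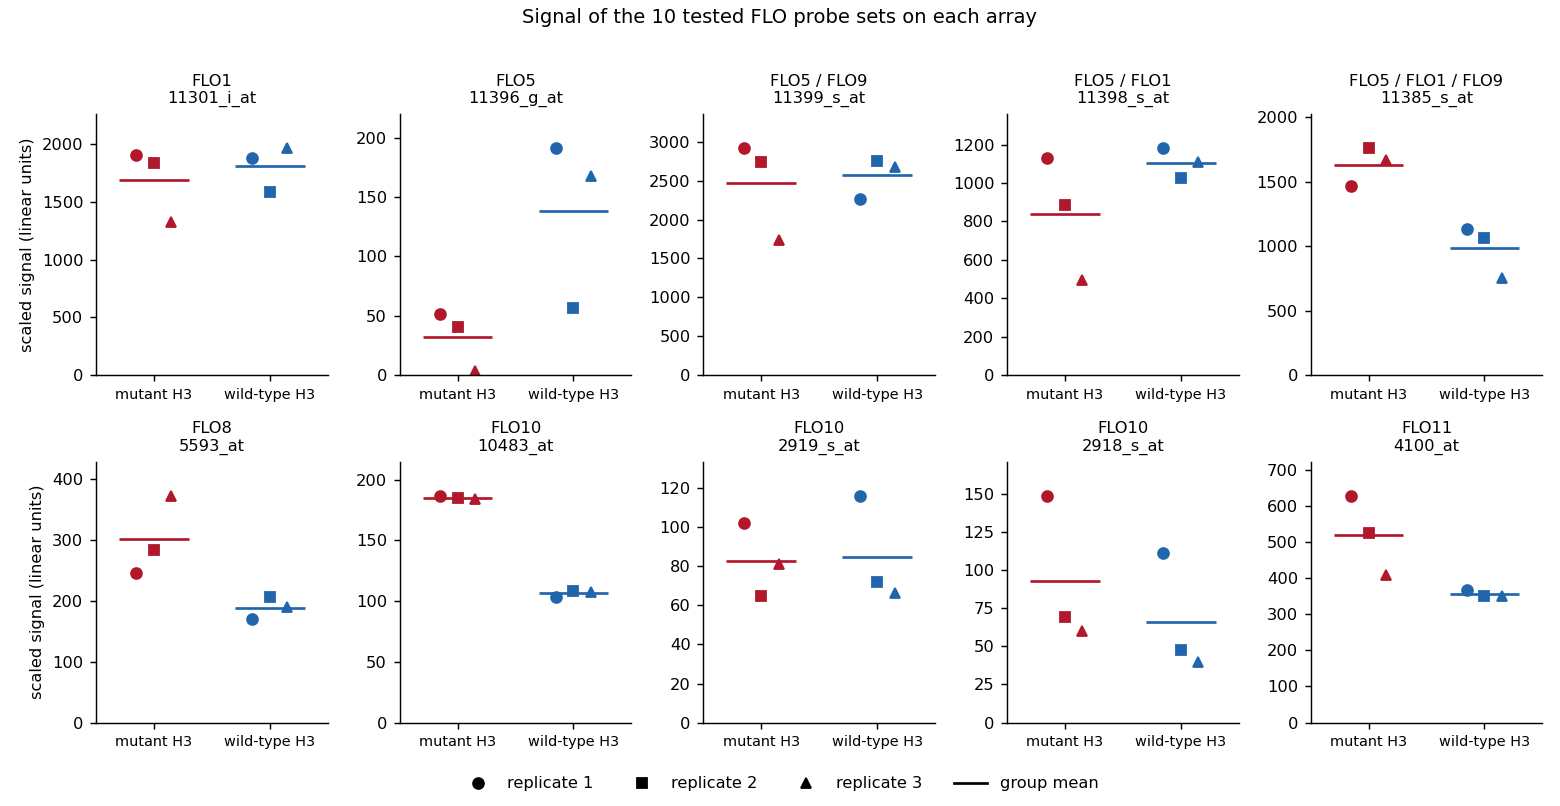
Scaled signal (linear, arbitrary units, from 0) of each tested FLO probe set on each array, with mutant arrays at the left of each panel and wild-type arrays at the right. Points are arrays, with the marker showing the replicate number, and lines are group means (n = 3). FLO10 probe set 10483_at shows the tightest groups, at 184 to 187 in the mutant and 103 to 109 in the wild type.

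FLO10, a lectin-like flocculin beside a telomere, was higher in the mutant at its probe set 10483_at. The signal was 187, 185 and 184 on the mutant arrays, against 103, 109 and 107 on the wild-type arrays. The mutant arrays all stood above the wild-type arrays and the groups were far apart relative to their spread. The mean was 185.2 ± 1.63 (SD, n = 3) in the mutant and 106.5 ± 2.70 (SD, n = 3) in the wild type, a ratio of 1.74. On the log2 scale it rose by 0.72 (SE 0.13, 95% interval 0.42 to 1.01, limma adjusted p = 0.026).

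The replicates of this probe set were unusually close. Only 0.191% of all probe sets tested had a smaller mutant SD on the log2 scale, and 4.67% had a smaller wild-type SD. The SE above is limma's moderated value, which draws such small spreads towards that of other probe sets of like intensity. The difference was 0.70 to 0.73 with any 1 array left out, yet among these 6 settings the call was kept only without mutant replicate 2 (adjusted p = 0.036). Without mutant replicate 1 the adjusted p was 0.095, without mutant replicate 3 it was 0.066, and without wild-type replicates 1, 2 and 3 it was 0.139, 0.073 and 0.116. With no signal minimum, 9275 probe sets were tested and the limma adjusted p was 0.051. On the deposited scale, where all probe sets had a median of -0.22, the difference was 0.49 (limma adjusted p = 0.061).

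The other FLO10 probe sets did not show this difference clearly. Probe set 2919_s_at read 102, 64.7 and 81.2 in the mutant, against 116, 72.2 and 66.6 in the wild type, and the groups overlapped. Its difference was -0.02 (95% interval -0.51 to 0.48, limma adjusted p = 0.969), an interval that stops short of 0.72. Probe set 2918_s_at read 149, 69.5 and 60.2 in the mutant, against 111, 47.6 and 39.6 in the wild type. Its difference was 0.42 (95% interval -0.38 to 1.22, limma adjusted p = 0.552), with overlapping groups. Replicate 1 was the brightest array of both strains at both probe sets, and their correlation over the 6 arrays was 0.83. The "_s_at" ending marks, in the array maker's naming, a probe set whose probes match more than a single transcript, while a plain "_at" marks a unique one.

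The remaining 4 FLO10 probe sets were under the signal minimum, with means over the 6 arrays of 7.54 to 42.1. Probe set 3001_at read 20.6, 27.5 and 28.3 in the mutant, against 8.89, 14.9 and 16.6 in the wild type. All its mutant arrays lay above all its wild-type arrays, at a level where the offset of 16 decides much of the log2 difference of 0.50. When every probe set was tested, this one had an adjusted p = 0.183. The other 3 had differences of -0.11, 0.19 and 0.26 with overlapping groups.

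FLO11, the flocculin of invasive and filamentous growth, had higher values in the mutant without a call. Its single probe set, 4100_at, read 629, 524 and 408 in the mutant, against 367, 351 and 349 in the wild type. Each mutant array was above each wild-type array, and mutant replicate 3 came closest to the wild type. The mean was 520.0 ± 110.6 (SD, n = 3) in the mutant and 355.8 ± 9.63 (SD, n = 3) in the wild type, a ratio of 1.46. The difference was 0.51 (SE 0.17, 95% interval 0.13 to 0.88, limma adjusted p = 0.143).

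The spread of FLO11 was 8.20 times as wide in the mutant as in the wild type on the log2 scale, with SDs of 0.30 and 0.04. Over all probe sets tested the median SD was 0.20 in the mutant and 0.13 in the wild type. Of the probe sets tested, 76.4% had a smaller mutant SD than FLO11 and 6.17% had a smaller wild-type SD. The ratio for FLO11 therefore came with wild-type arrays that were close together as well as with mutant arrays that were not. Without mutant replicate 3 the difference was 0.67 (limma adjusted p = 0.074), and without mutant replicate 1 it was 0.36 (limma adjusted p = 0.252).

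FLO8, the activator of the flocculins, also had higher values in the mutant without a call. Probe set 5593_at read 246, 284 and 373 in the mutant, against 170, 206 and 190 in the wild type. The groups did not overlap, and mutant replicate 3 was the brightest array. The mean was 301.2 ± 65.1 (SD, n = 3) in the mutant and 188.6 ± 18.3 (SD, n = 3) in the wild type, a ratio of 1.60. The difference was 0.62 (SE 0.17, 95% interval 0.23 to 1.00, limma adjusted p = 0.099).

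The other FLO8 probe set, 5594_at, was dim. It read 17.8, 18.2 and 15.3 in the mutant, against 11.3, 18.6 and 11.3 in the wild type, with overlapping groups and a difference of 0.16 that was not tested at this signal. FLO8 and FLO11 did not follow the same order within the mutant: replicate 3 was the highest of the 3 for FLO8 and the lowest for FLO11. The labels do not say whether these cells carry an intact FLO8, and an RNA signal does not show it.

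**Figure D2:**
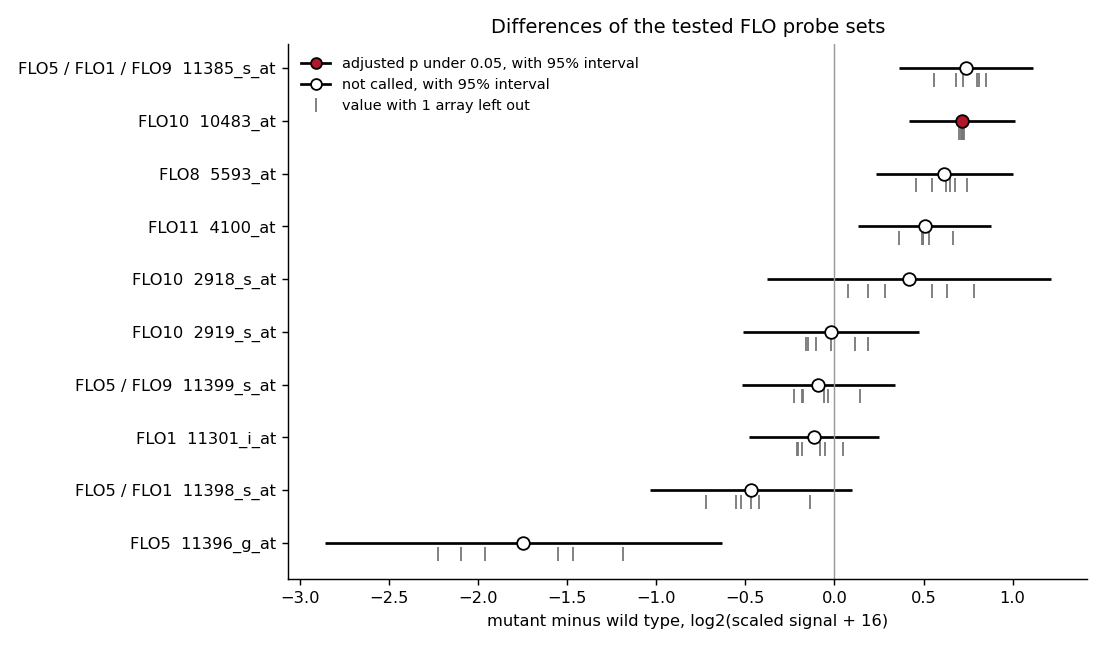
Mutant minus wild type on log2(scaled signal + 16) for the 10 tested FLO probe sets, with limma 95% intervals as lines and the values with 1 array left out as ticks below. The filled point is the call, FLO10 probe set 10483_at at 0.72; FLO5 probe set 11396_g_at lies lowest at -1.75, with an interval from -2.86 to -0.63.

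FLO1, FLO5 and FLO9 encode closely related lectin flocculins, and their probe sets did not give a common direction. The FLO1 probe set 11301_i_at read 1905, 1840 and 1328 in the mutant, against 1887, 1590 and 1969 in the wild type. The groups overlapped, and mutant replicate 3 was the lowest of the 6 arrays. Means were 1691 ± 316.3 (SD, n = 3) in the mutant and 1815 ± 199.3 (SD, n = 3) in the wild type. The difference was -0.11 (95% interval -0.48 to 0.25, limma adjusted p = 0.744), and 0.05 without mutant replicate 3.

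The probe set listing FLO5 and FLO9, 11399_s_at, also had overlapping groups. It read 2920, 2737 and 1740 in the mutant, against 2270, 2760 and 2679 in the wild type. Mutant replicate 3 was again the lowest array. The difference was -0.09 (95% interval -0.52 to 0.34, limma adjusted p = 0.835), and 0.14 without mutant replicate 3.

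The probe set listing FLO5 and FLO1, 11398_s_at, read 1130, 886 and 494 in the mutant, against 1182, 1026 and 1108 in the wild type. Mutant replicate 1 lay within the wild-type values, while replicates 2 and 3 lay below them. The difference was -0.47 (SE 0.25, 95% interval -1.04 to 0.10, limma adjusted p = 0.339), and -0.14 without mutant replicate 3 (limma adjusted p = 0.677). Its SD on the log2 scale was 0.60 in the mutant and 0.10 in the wild type, and 96.6% of the probe sets tested had a smaller mutant SD.

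The probe set listing all 3 genes, 11385_s_at, had higher values in the mutant. It read 1470, 1761 and 1666 in the mutant, against 1137, 1062 and 756 in the wild type. The groups did not overlap, and mutant replicate 3 was not low. Means were 1632 ± 148.3 (SD, n = 3) in the mutant and 984.8 ± 201.7 (SD, n = 3) in the wild type, a ratio of 1.66. The difference was 0.74 (SE 0.17, 95% interval 0.36 to 1.11), which missed the threshold with a limma adjusted p = 0.057. This interval lies wholly above those of the FLO1 probe set and of the probe sets shared by FLO5 with FLO1 or FLO9, although the same genes are listed. The difference between these probe sets was not tested.

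The FLO5 probe sets of its own were dim. Probe set 11396_g_at read 51.7, 40.0 and 3.23 in the mutant, against 191, 56.5 and 167 in the wild type. The groups did not overlap, but wild-type replicate 2 lay close to the brightest mutant array. Means were 31.6 ± 25.3 (SD, n = 3) in the mutant and 138.3 ± 71.8 (SD, n = 3) in the wild type. The difference was -1.75 (SE 0.50, 95% interval -2.86 to -0.63, limma adjusted p = 0.101), and -1.19 without mutant replicate 3. Its spread was among the widest measured, with 99.4% of the probe sets tested below it in the mutant and 99.8% in the wild type.

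The other FLO5 probe sets fell under the signal minimum. Probe set 11395_at read 14.9, 27.9 and 20.2 in the mutant, against 43.2, 21.0 and 35.1 in the wild type, a difference of -0.40. Probe set 11397_f_at, whose ending marks a sequence family, read 34.7, 78.4 and 32.3 in the mutant, against 25.5, 31.5 and 57.7 in the wild type, a difference of 0.22. The groups overlapped at both.

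**Figure D3:**
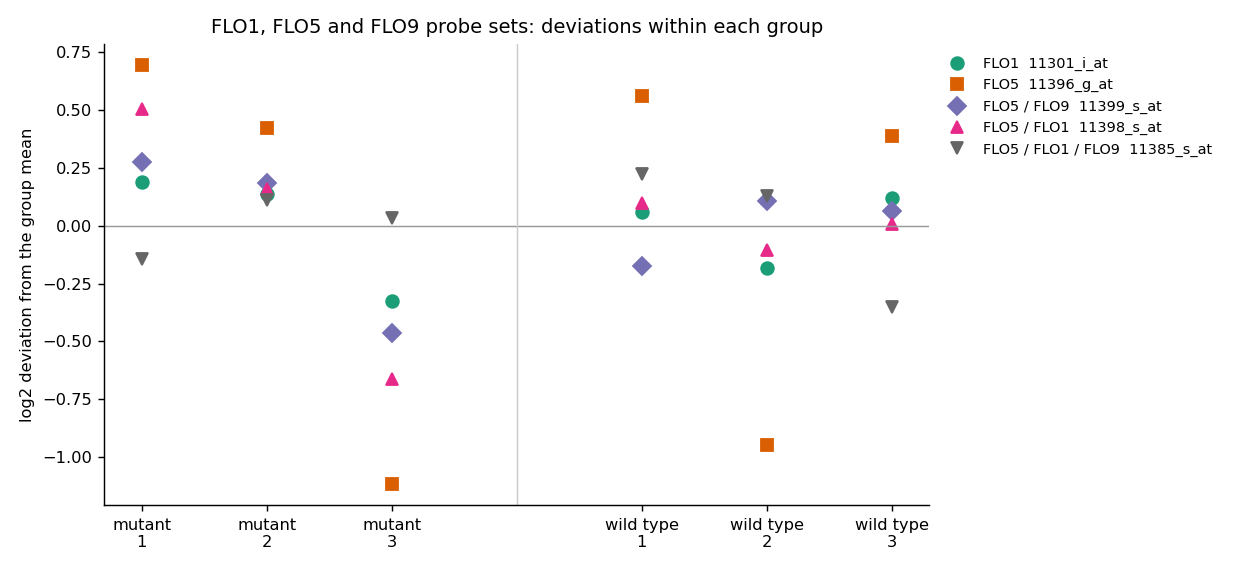
Deviation of each array from its group's mean (log2 scale) for the 5 tested probe sets of FLO1, FLO5 and FLO9, with mutant arrays at the left and wild-type arrays at the right. Mutant replicate 3 lies at -0.33 to -1.12 for 4 probe sets and at 0.03 for 11385_s_at, the probe set listing all 3 genes.

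Variation within the mutant was thus shared by 4 of these probe sets, but not by the probe set listing all 3 genes. On mutant replicate 3 the FLO1 probe set deviated from the mutant mean by -0.33, the FLO5/FLO9 probe set by -0.46, the FLO5/FLO1 probe set by -0.66 and the FLO5 probe set by -1.12, while the probe set listing all 3 genes deviated by 0.03. Before the scaling used here, mutant replicate 3 had a trimmed mean of 0.767 times that of the wild-type arrays, against 0.888 and 0.868 for mutant replicates 1 and 2. The part of this factor in the deviations was not tested. Probe sets that list the same genes can share probes, so these 4 values are not independent of each other.

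Over the 6 arrays, FLO10 probe set 10483_at correlated with the probe set listing FLO1, FLO5 and FLO9 (r = 0.87), with FLO8 (r = 0.86) and with FLO11 (r = 0.83). FLO8 correlated with the FLO5 probe set 11396_g_at at r = -0.96. These values describe 6 arrays that share 2 group levels, so any pair of probe sets that differ between the strains will correlate.

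Among 5625 tested probe sets that list 1 gene outside the family, those most like each FLO probe set over the 6 arrays were found by Pearson's r on the log2 scale. For FLO10 probe set 10483_at they were UIP5 (r = 0.989), ESP1, which encodes the separase that cuts cohesin (0.988), and SAM3, the S-adenosylmethionine permease (0.988). ESP1 and SAM3 were themselves called higher in the mutant. For FLO11 they were YHR138C (0.986), PLN1 (0.974) and ICL1, the isocitrate lyase of the glyoxylate cycle (0.969). For FLO8 they were RRP17 (0.998), IGO1 (0.994) and the mitochondrial chaperone gene HSP78 (0.994).

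For the FLO1 probe set the most alike were DUS4 (r = 0.980), SDP1 (0.977) and COX4, a subunit of cytochrome c oxidase (0.975). For the FLO5/FLO9 probe set they were TKL2, a transketolase (0.990), SNT309 (0.985) and BAT1, a branched-chain amino acid transaminase that lies near FLO5 (0.983). For the FLO5/FLO1 probe set they were ILV3 (0.984), MET13 (0.982) and RPA34 (0.980). The probe set listing all 3 genes was most like AIM41 (0.982), HSE1 (0.982) and FBP26 (0.981), and the FLO5 probe set most like ECM33 (0.995), YNCK0005C (0.992) and OYE3 (0.985). The FLO10 probe sets 2919_s_at and 2918_s_at had lower best values, 0.968 for KRE5 and 0.931 for VIP1, followed by FKS1 (0.934) and SDS24 (0.930), and by KIN2 (0.915) and YML020W (0.915). With this many candidates and 6 arrays, high values arise for any probe set.

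Genes that regulate the FLO family were counted next, each at its brightest probe set. The lists held 62 genes, of which 60 were tested and 3 were called (5%), 2 higher and 1 lower. Of all 5178 genes tested in this way, 1.95% were called, 0.869% higher and 1.08% lower. The lists were chosen with earlier results of these data known, so their share called is not independent of these data. Of all 5178 genes, 10.9% were higher and 8.25% lower at an unadjusted p under 0.05 by limma. For 15.5% of all genes the mutant values lay wholly above the wild-type values, and for 11.4% wholly below.

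Of 18 DNA-binding regulators, 0 were called by limma, while 1 was higher and 3 were lower at an unadjusted p under 0.05, against 10.9% and 8.25% of all genes. Their median difference was -0.06, against 0.03 over all genes tested. The activator gene PHD1, whose product promotes filamentous growth, read 367, 282 and 300 in the mutant, against 461, 436 and 456 in the wild type, with a difference of -0.50 (limma adjusted p = 0.101). MIT1, a regulator of FLO gene expression and pseudohyphal growth, had a difference of -0.57 (limma adjusted p = 0.128). STE12, the transcription factor of mating and filamentation, had a difference of -0.37 (limma adjusted p = 0.186). For these 3 of the 18 genes the mutant values lay wholly below the wild-type values, and for 3 others they lay wholly above. The shares of all genes were 11.4% below and 15.5% above. The 3 above were SFL1, NRG1 and HMS1, with differences of 0.34, 0.22 and 0.15, and they were named after their values were seen.

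Of 18 tested co-repressors, remodellers and histone modifiers, 1 was called higher and 1 lower, and the median difference was 0.16. At an unadjusted p under 0.05 by limma, 5 were higher and 1 lower, against 10.9% and 8.25% of all genes. Mutant values lay wholly above the wild-type values for 6 and wholly below for 3, against 15.5% and 11.4% of all genes. HDA3, a subunit of the Hda1 deacetylase that works with Tup1, read 109, 111 and 141 in the mutant, against 46.9, 70.2 and 43.6 in the wild type. It rose by 0.98 (SE 0.19, limma adjusted p = 0.031). SNF6, a subunit of the SWI/SNF remodeller that activates FLO1, read 301, 253 and 272 in the mutant, against 461, 405 and 468 in the wild type. It fell by 0.66 (SE 0.14, limma adjusted p = 0.041). SIR4, of the telomeric silencing complex, read 88.0, 111 and 120 in the mutant, against 69.1, 82.3 and 50.5 in the wild type, with a difference of 0.57 (limma adjusted p = 0.149).

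Of 24 tested signalling genes, 1 was called, higher, and the median difference was 0.12. At an unadjusted p under 0.05 by limma, 2 were higher and 1 lower, against 10.9% and 8.25% of all genes. STE11, a kinase of the mating and filamentation cascade, read 296, 325 and 258 in the mutant, against 162, 170 and 135 in the wild type. It rose by 0.85 (SE 0.15, limma adjusted p = 0.025). YAK1, a kinase opposed by protein kinase A, had a difference of 0.40 at its brightest probe set (limma adjusted p = 0.147), and 0.20 and 0.15 at its others. GAL83, a subunit of the Snf1 kinase, had a difference of -0.40 (limma adjusted p = 0.172).

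Each of these calls was lost with some arrays left out, and the number of regulators called was 0 without mutant replicate 1 or wild-type replicates 1 or 3, 1 without mutant replicate 3 or wild-type replicate 2, and 5 without mutant replicate 2. HDA3 lost its call without mutant replicates 1 or 3 or wild-type replicates 1 or 3, at a limma adjusted p of 0.099 to 0.129. SNF6 lost its call without any array but mutant replicate 2, at 0.079 to 0.182. STE11 lost its call without mutant replicate 1 or any wild-type array, at 0.060 to 0.112. With no signal minimum HDA3 had 0.062 and SNF6 0.061, and with the deposited intensities STE11 had 0.063.

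**Figure D4:**
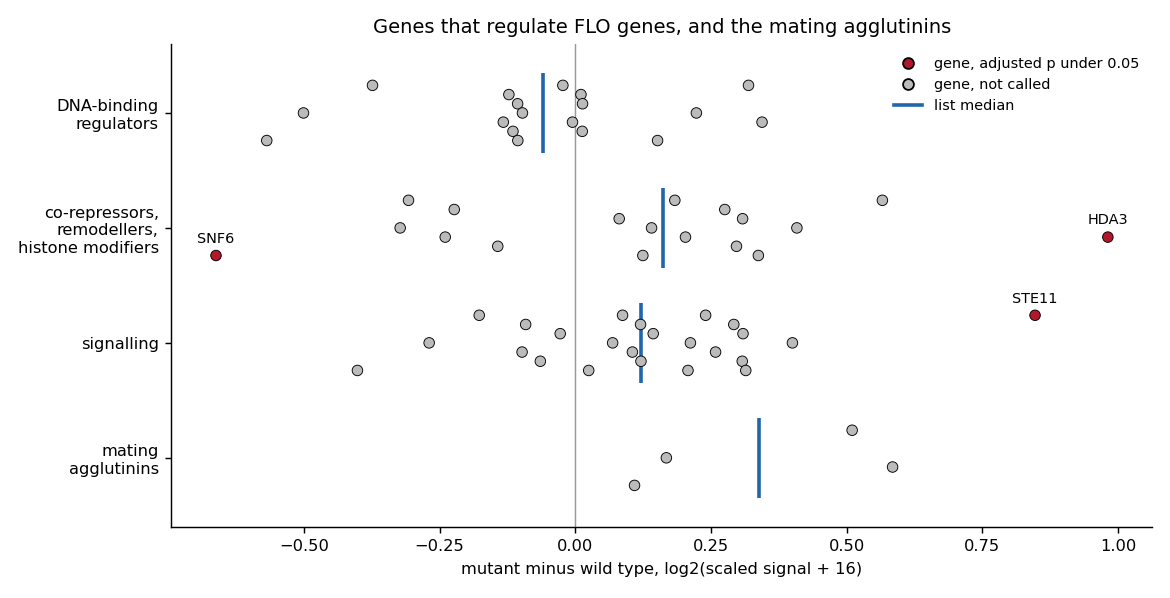
Mutant minus wild type on log2(scaled signal + 16) for each regulator gene and mating agglutinin gene at its brightest probe set, by list, with list medians as vertical lines. HDA3 at 0.98, STE11 at 0.85 and SNF6 at -0.66 are the genes called.

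The mating agglutinins, the adhesins that join mating partners, were set beside the flocculins. This list, too, was chosen with earlier results of these data known. Of 4 tested, 0 were called by limma, while 2 were higher at an unadjusted p under 0.05, as were 10.9% of all genes. FIG2, a mating-induced adhesin, read 229, 242 and 312 in the mutant, against 163, 165 and 174 in the wild type, with a difference of 0.58 (limma adjusted p = 0.085). SAG1, the agglutinin of alpha cells, read 250, 235 and 282 in the mutant, against 173, 157 and 195 in the wild type, with a difference of 0.51 (limma adjusted p = 0.101). Both had mutant values wholly above the wild-type values, as had 15.5% of all genes. AGA1, the anchor subunit of a-agglutinin, and AGA2, its binding subunit, had differences of 0.17 and 0.11 with overlapping groups.

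Genes beside the FLO genes were taken as the 5 nearest on each side in the gene table, or fewer at a chromosome end, 59 in all, of which 38 were tested. Of these 0 were called by limma, while 3 were higher and 5 lower at an unadjusted p under 0.05, against 10.9% and 8.25% of all genes. Their median difference was -0.07, against 0.03 over all genes tested.

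The neighbours of different FLO genes had different signs. Beside FLO10, 6 of 7 tested genes had positive differences, with a median of 0.21 and a range of -0.03 to 0.63. Of these 6, NFT1 averaged 58.0 in the mutant and 45.8 in the wild type. NFT1 passed the signal minimum only through its mutant arrays, so its sign was in part fixed by the filter. Beside FLO11 all 5 tested genes had negative differences, from -0.58 to -0.03, while FLO11 itself had 0.51. Beside FLO1 all 5 were negative, from -0.60 to -0.06, and beside FLO5 the 5 tested genes, all on 1 side, ranged from -0.22 to 0.59. Beside FLO8, away from the chromosome end, 9 genes ranged from -0.15 to 0.21, while FLO8 had 0.62. None of these genes passed the test, and differences between neighbourhoods were not tested.

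The neighbours with the smallest p-values lay beside FLO9 and FLO5. YAL063C-A, next to FLO9, read 105, 251 and 219 in the mutant, against 408, 301 and 462 in the wild type at a probe set of the sequence family kind. Its difference was -1.03 (SE 0.28, limma adjusted p = 0.096), with no overlap of the groups, and its other tested probe set had -1.19 (limma adjusted p = 0.088). CNE1, the yeast calnexin, lies 5 genes from FLO9 and had a difference of -0.58 (limma adjusted p = 0.132). CRG1, a methyltransferase gene near FLO5, had a difference of 0.59 (limma adjusted p = 0.145) with overlapping groups. Without mutant replicate 2 the limma adjusted p was 0.041 for YAL063C-A and 0.046 for CRG1.

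**Figure D5:**
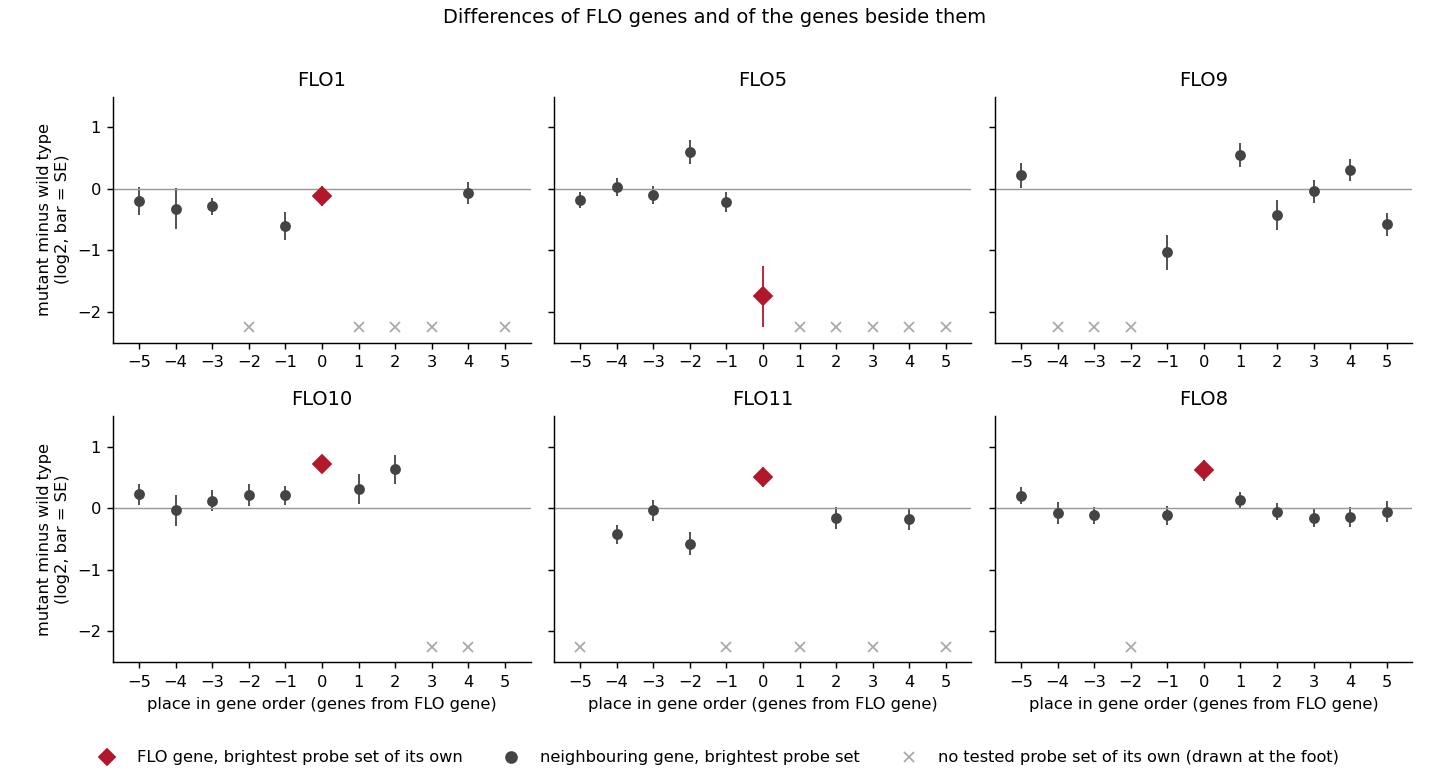
Mutant minus wild type (log2 scale, bars are SE) for each FLO gene at its brightest own probe set (diamond) and for up to 5 neighbouring genes on each side (circles), in gene order; FLO9 has no own probe set. At these probe sets FLO10 at 0.72, FLO8 at 0.62 and FLO11 at 0.51 lie above all their tested neighbours. The other tested FLO10 probe sets, at -0.02 and 0.42, are not drawn and do not lie above all of them. The FLO5 value of -1.75 comes from a probe set that passed the signal minimum only through its wild-type arrays.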

How the data were processed

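Total RNA was hybridised to 6 Affymetrix arrays, and the sample titles gave each array's group and replicate. The deposited table holds linear MAS5 intensities per probe set; MAS5 is named in the submitters' processing notes, without a version. On the deposited scale the mutant arrays had lower trimmed means. No source used here says what set this. The scaling to a 2% trimmed mean of 500, with 60 control probe sets left out, removes it. Probe sets whose scaled signal averaged at least 50 were tested with limma 3.58.1 (R 4.3.3; lmFit and eBayes with an intensity trend) on log2(signal + 16), an offset that shrinks the differences of dim probe sets. No detection calls were used. The number of arrays limits the precision, with a median SE of 0.16 over all probe sets tested.

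Probe sets were named by the platform annotation: 6504 list 1 gene, 328 several and 2503 none, controls included. All 6504 matched the gene table of assembly R64.

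The members and gene lists were chosen with earlier results of these data known. The rule for named genes took every FLO probe set, the H3 genes, each list gene called (and those with the smallest p up to 3 a list), and the 3 probe sets most like each tested FLO probe set. AGA2 was added as a fixed mating-type gene. The procedure was tested on simulated data. Alternatives were the deposited intensities times 1 common factor, equal medians, quantile normalization, offsets of 1 and 64, no signal minimum or one of 200, a replicate block, no intensity trend and leaving out each array.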

Additional observations from a re-analysis of the deposited data

How the results depend on the processing

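Over the 10 tested FLO probe sets and these alternatives, 132 of 146 values kept their direction and their side of the threshold. Most of these belong to probe sets that were not called in the reported setting either. The called probe set, FLO10 10483_at, kept its call in 7 of 14 alternatives and lost it in 7. The number of FLO probe sets called was 0 with the deposited intensities and 0 with no signal minimum. It was 0 with a minimum of 200, which leaves out the FLO10 probe set 10483_at, and 0 to 1 with an array left out. At an unadjusted p under 0.05 by limma, the deposited intensities gave 3 higher and 2 lower of 10. No minimum gave 5 and 1 of 17, and a minimum of 200 gave 3 and 0 of 6. The reported setting gave 4 and 1 of 10, against 10.7% and 8.92% of all probe sets. The shares of all probe sets at that p under the alternatives are not given here. The deposited intensities put the median of all probe sets at -0.22, where FLO10 had 0.49 (adjusted p = 0.061), which is 0.71 above that median. Over all probe sets they gave 31 higher and 374 lower, against 61 and 92. No minimum gave 33 higher and 54 lower, a minimum of 200 gave 57 lower, and leaving out an array gave 13 to 124 higher and 23 to 140 lower. Regulator genes called were 5 with the deposited intensities (PHD1, MIT1 and GAL83 lower besides HDA3 and SNF6), 1 with no minimum and 0 to 5 with an array left out, against 3. Genes beside FLO genes called were 2 with the deposited intensities and 0 to 2 with an array left out, against 0.

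The labels give replicate numbers without saying whether same-numbered arrays form pairs, and the reported fit did not pair them. Deviations of same-numbered arrays correlated at 0.125, 0.157 and 0.042. Yet 2 of 3 mutant arrays and 3 of 3 wild-type arrays correlated best with their own number, so pairing cannot be set aside. With the replicate block, 3 FLO probe sets were called: FLO10 10483_at, 11385_s_at (limma adjusted p = 0.037) and, lower, FLO5 11396_g_at (0.037), which passed the signal minimum only through its wild-type arrays. It changed no other FLO call. The block gave 108 higher and 147 lower over all probe sets and 2 genes beside FLO genes.

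Signs turned only in values that were not called. FLO10 2919_s_at gave 0.0055 with quantile normalization and -0.16 to 0.19 with an array left out. FLO1 gave -0.21 to 0.050 and the FLO5/FLO9 probe set -0.23 to 0.14 with an array left out, and AGA1 gave -0.076 with the deposited intensities. The causes were not tested. Dim probe sets bound what can be read: with an offset of 1, FLO10 3001_at had a difference of 0.90 in place of 0.50.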
